A study of Homo sapiens with 18 samples.

Results

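The V5 chromatin immunoprecipitation sequencing (ChIP-seq) peaks of EHMT1-K450R and of EHMT1-WT were compared in LNCaP, an established androgen-responsive human prostate cancer line. All peaks of both deposited lists were used, 652 for WT and 637 for K450R, which is 1289 of the 22458 peaks in the 9 lists of the series. A peak was called shared when it overlapped a peak of the other list by at least 1 bp, and WT-only or K450R-only when it did not. Both groups were LNCaP cells stably carrying a tetracycline-inducible, V5-tagged EHMT1, either WT or with lysine 450 replaced by arginine, and both had received 0.5 µg/ml doxycycline for 2 days. The labels describe no removal of the cells' own EHMT1, and do not say whether a line was 1 clone, so that construct and line cannot be told apart. Each group had 2 replicates but 1 peak list, and the sources used here do not state how the replicates entered it. No spread between replicates exists here, no test was made, and the 95% Wilson intervals cover counting error only. The study also precipitated V5-EHMT1-K451R, V5-EHMT1-K450RK451R and H3K9me2 from the 4 induced lines, and endogenous EHMT1 from untreated parental LNCaP cells.

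EHMT1 (GLP) forms a complex with EHMT2 (G9a) that places mono- and dimethyl groups on lysine 9 of histone H3, a mark of silent euchromatin. The complex has no strong sequence preference of its own and is known to be brought to neuronal genes outside the nervous system by corepressors of REST, a zinc-finger protein that binds the RE1 element. The study concerns methylation of EHMT1 itself on neighbouring lysines, of which lysine 450 is one, and the comparison asks whether replacing that lysine alone alters where the protein is found on chromatin.

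The sequences under leading peaks show what kind of DNA the lists hold. They are the peak intervals on the plus strand of hg19, read 5′ to 3′. The first is the strongest shared place without an H3K9me2 peak whose interval holds no untranslated exon, in an intron of PDZRN4 (chr12:41757409-41757550). Then come the K450R-only peaks with the highest −log10 q (the caller's q-value on a minus log scale), in an intron of PCBD2 (chr5:134263385-134263522) and in intergenic DNA (chr12:34834516-34834654 and chrY:58862680-58862783). The WT-only counterparts lay in an intron of DCC (chr18:50319096-50319248) and in intergenic DNA (chr4:49646644-49646789 and chrY:13480253-13480414). Capitals mark GGAAT units or their complement ATTCC in the sequences that hold several, and otherwise the 21 bases around the summit.
PDZRN4 intron, shared: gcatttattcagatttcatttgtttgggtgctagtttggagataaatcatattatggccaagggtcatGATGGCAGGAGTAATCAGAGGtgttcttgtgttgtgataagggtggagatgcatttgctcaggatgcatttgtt
PCBD2 intron, K450R-only: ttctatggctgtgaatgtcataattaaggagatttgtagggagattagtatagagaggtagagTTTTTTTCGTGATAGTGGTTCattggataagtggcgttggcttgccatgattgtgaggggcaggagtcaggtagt
Chromosome 12, K450R-only: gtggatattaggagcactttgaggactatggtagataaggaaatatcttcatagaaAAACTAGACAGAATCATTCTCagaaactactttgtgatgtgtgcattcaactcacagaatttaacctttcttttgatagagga
Chromosome Y, K450R-only: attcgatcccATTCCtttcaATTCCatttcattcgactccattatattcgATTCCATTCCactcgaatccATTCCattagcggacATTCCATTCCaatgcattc
DCC intron, WT-only: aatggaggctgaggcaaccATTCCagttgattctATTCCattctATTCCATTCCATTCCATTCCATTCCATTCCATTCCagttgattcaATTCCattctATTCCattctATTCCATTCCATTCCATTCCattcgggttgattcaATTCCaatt
Chromosome 4, WT-only: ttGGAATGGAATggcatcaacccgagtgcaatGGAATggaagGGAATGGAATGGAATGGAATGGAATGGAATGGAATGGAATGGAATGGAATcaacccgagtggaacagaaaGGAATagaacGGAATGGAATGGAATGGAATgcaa
Chromosome Y, WT-only: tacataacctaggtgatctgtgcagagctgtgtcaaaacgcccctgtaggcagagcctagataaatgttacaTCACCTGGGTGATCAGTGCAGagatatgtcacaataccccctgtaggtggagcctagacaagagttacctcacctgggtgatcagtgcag

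Most of these are repeats, and so were most peaks of both lists. Of the windows reaching 100 bp to either side of nuclear summits, 45.4% of shared WT, 44.8% of shared K450R, 37.2% of WT-only and 38.9% of K450R-only windows lay in DNA that matched itself at a spacing close to the monomer of centromeric alpha satellite, a measure that other tandem repeats can also reach. GGAAT repeats, the unit of human satellites near centromeres and on chromosome Y, made up 18%, 19%, 19% and 21.3% of the same classes. Windows that aligned to the mitochondrial genome made up 4.36%, 4.76%, 4.96% and 4.63%, and telomere repeats were rarer. Together these kinds held 68.5% of shared WT, 69.3% of shared K450R, 63.6% of WT-only (95% interval 54.8 to 71.7%) and 68.5% of K450R-only windows (59.3 to 76.5%), against 0.357% of 14298 windows set every 200 kb along the genome. WT-only and K450R-only peaks thus had nearly the same make-up as each other, with overlapping intervals.

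**Figure D1:**
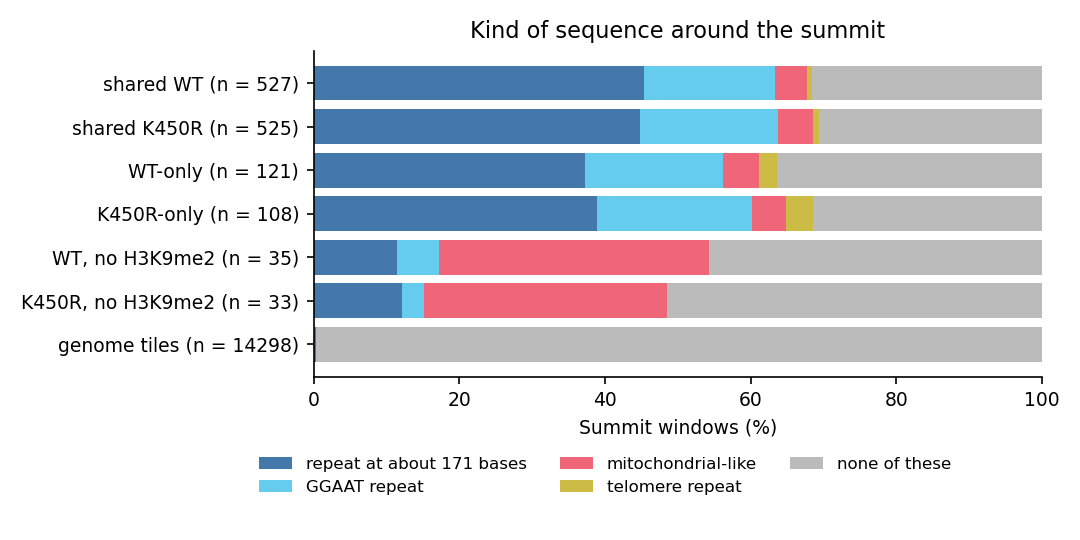
Kind of sequence within 100 bp of each nuclear summit, as a percentage of windows, for each class of peak and for windows set every 200 kb along the genome. The coloured kinds fill 63.6 to 69.3% of the bars of the 4 classes and 0.357% of the genome windows; mitochondrial-like DNA fills 37.1% (WT) and 33.3% (K450R) of the bars without an H3K9me2 peak.

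Most summits lay near assembly gaps. Within 1 Mb of an assembly gap of at least 10 kb lay 83.1% of shared WT, 83.0% of shared K450R, 79.3% of WT-only and 83.3% of K450R-only nuclear summits, compared with 11% of the genome windows. Summits were intergenic for 84.0%, 83.7%, 78.5% and 78% of these classes and intronic for 11.9%, 12.1%, 17.4% and 17.4%. The chromosomes with the most peaks were 10, with 67 WT and 68 K450R peaks, 2, with 60 and 55, and Y, with 54 and 52, while chromosome 13 had 3 and 2. Chromosome 4 held 14 WT-only and 5 K450R-only peaks, the widest gap between those classes on any chromosome. A window in which no 51-base stretch, the length of a read, was unique in the genome was found at 15.2% of shared summits in either list, 11.6% of WT-only and 8.33% of K450R-only summits, against 2.34% of genome windows, so reads at those places could not be assigned to 1 locus.

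Most peaks of either list were present in the other. Of the WT peaks, 531 (81.4%, 95% interval 78.3 to 84.2%) overlapped a K450R peak, and 121 did not. Of the K450R peaks, 528 (82.9%, 79.8 to 85.6%) overlapped a WT peak, and 109 did not. The smallest overlaps that made a peak shared were 24, 43 and 47 bp, and the nearest peaks that failed the rule lay 62 bp away for WT-only and 121 bp away for K450R-only. A peak of the other list lay within 1 kb of 34 WT-only (28.1%) and 23 K450R-only peaks (21.1%).

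Unshared peaks ranked lower and were weaker at the median, though not all were weak. A −log10 q of at least 10 was reached by 47 of 121 WT-only and 33 of 109 K450R-only peaks. Among shared peaks it was reached by 418 of 531 in WT and 440 of 528 in K450R. Ranked by −log10 p (the caller's p-value on a minus log scale), every one of the 200 strongest WT peaks and of the 200 strongest K450R peaks was shared. Sharing then fell to 88 of 152 peaks (57.9%, 49.9 to 65.5%) beyond rank 500 in WT and to 70 of 137 (51.1%, 42.8 to 59.3%) beyond rank 500 in K450R. The best rank of a WT-only peak was 203 and that of a K450R-only peak 209. The median pileup, the number of overlapping reads at the summit, was 38 at shared WT and 18 at WT-only peaks, and 40 at shared K450R and 16 at K450R-only peaks. Median fold enrichment, the pileup over the local background with 1 added to both, was 7.85 against 6.60 in the WT list and 7.73 against 7.0 in the K450R list. The K450R list rested on an estimated 11.1 M reads and the WT list on 8.84 M, figures that depend on a background seen at 3 K450R and 9 WT peaks, and the lowest pileup of any peak was 6 in the former and 7 in the latter. At this depth weak places rested on few reads, and a missing peak was not shown to be missing binding.

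**Figure D2:**
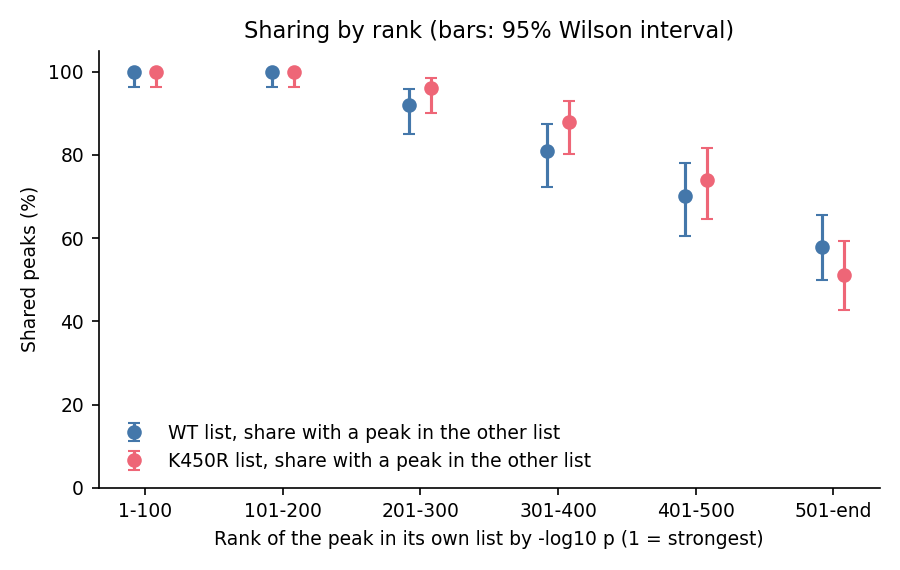
Share of peaks with an overlapping peak in the other list (percent) by the rank of the peak in its own list, for the WT and the K450R list. Points are shares and bars 95% Wilson intervals; all peaks to rank 200 are shared, and the shares fall to 57.9% and 51.1% in the last bin.

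At shared places the enrichment was alike. Overlapping peaks formed 523 pairs, whose median fold was 7.87 for WT and 7.75 for K450R. The log2 ratio of K450R over WT had a median of −0.01 with quartiles of −0.13 and 0.12, and K450R was the higher at 239 places and WT at 284. Past a ratio of 1.5 lay 9 places with more in K450R (1.72%) and 7 with more in WT (1.34%). Log2 fold correlated across the 523 places with a Pearson r of 0.96, a description of places that share repeat content and mappability. Scaled to the estimated number of reads, the log2 pileup ratio had a median of −0.25, lower in K450R. Summits of a pair were a median of 6 bp apart.

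**Figure D3:**
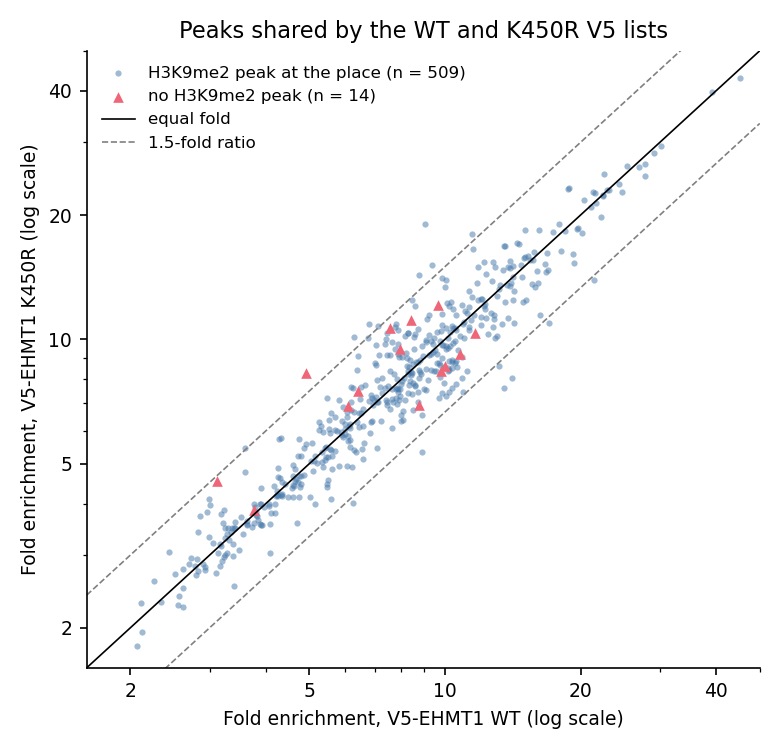
Fold enrichment at the summit in the WT list (x) and the K450R list (y) for the 523 pairs of overlapping peaks, both on log scales. Circles have an H3K9me2 peak in any of 4 lists (n = 509) and triangles have none (n = 14); the solid line is equal fold and the dashed lines a ratio of 1.5, exceeded at 9 places towards K450R and 7 towards WT.

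Among the strongest shared places the values were nearly equal. The fold was 39.3 in WT and 39.8 in K450R in an intron of the pseudogene ANKRD20A7P on chromosome 9 (chr9:44070642-44070832), and 24.7 and 22.8 at an intergenic repeat on the same chromosome (chr9:69710896-69711358). Both had a peak in all 9 lists. Among pairs with −log10 q of at least 10 in both lists, the places that leaned most to K450R had folds of 8.77 in WT and 14.3 in K450R (a repeat on chromosome 9), 9.38 and 15.1 (a GGAAT repeat on chromosome Y) and 11.5 and 18 (mitochondrial-like DNA in an intron of the kinesin gene KIF5C). Those that leaned most to WT had folds of 17 and 11 (mitochondrial-like DNA in an intron of VPS13B), 21.5 and 13.9 (an intron of MAN1A1) and 16.3 and 11.4 (an intron of the myosin chaperone gene UNC45B). None of these ratios can be set against a replicate spread.

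Nearly all shared places carried an H3K9me2 peak. An H3K9me2 peak in any of the 4 lists lay at 517 of 531 shared WT peaks (97.4%, 95.6 to 98.4%) and 514 of 528 shared K450R peaks (97.3%). It lay at 100 of 121 WT-only peaks (82.6%, 74.9 to 88.4%) and 89 of 109 K450R-only peaks (81.7%, 73.4 to 87.8%). Most shared peaks, 425 of 531 in WT, had a peak in all 7 other lists, whichever antibody was used. Whether an H3K9me2 peak at such a place shows the mark, or signal common to all lists, was not tested. H3K9me2 peaks were also counted by line. Of the 121 WT-only peaks, 43 had an H3K9me2 peak in both the WT and the K450R line, 13 in the WT line alone, 22 in the K450R line alone and 43 in neither. Of the 109 K450R-only peaks, 41 had it in both lines, 13 in the WT line alone, 17 in the K450R line alone and 38 in neither. At the 460 shared places with an H3K9me2 peak in both lines, the log2 ratio of H3K9me2 fold in the K450R line over the WT line had a median of 0.03, with quartiles of −0.08 and 0.14.

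The other lists held most of the unshared peaks as well. Endogenous EHMT1 of parental cells had a peak at 97.9% of shared peaks of either list, at 100 of 121 WT-only peaks (82.6%) and at 98 of 109 K450R-only peaks (89.9%). The V5-EHMT1-K450RK451R list, by far the longest with 14799 peaks, covered 86.8% of WT-only and 90.8% of K450R-only peaks, and V5-EHMT1-K451R covered 69.4% and 64.2%. A peak in all 7 other lists was found at 425 of 531 shared WT, 421 of 528 shared K450R, 35 of 121 WT-only and 27 of 109 K450R-only peaks. Found in no list but their own were 5 WT-only peaks (4.13%, 1.78 to 9.31%) and 2 K450R-only peaks (1.83%, 0.505 to 6.44%). Both K450R-only peaks were alpha-like repeats, on chromosome 5 (chr5:49524450-49524582) with a fold of 8.92 and on chromosome 11 (chr11:50637474-50637573) with a fold of 7.74. The 5 in WT had folds from 5.88 to 6.78, and 1 of them lay in an intron of the splicing regulator gene RBFOX1 (chr16:7058956-7059055), with the fold of 6.78.

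**Figure D4:**
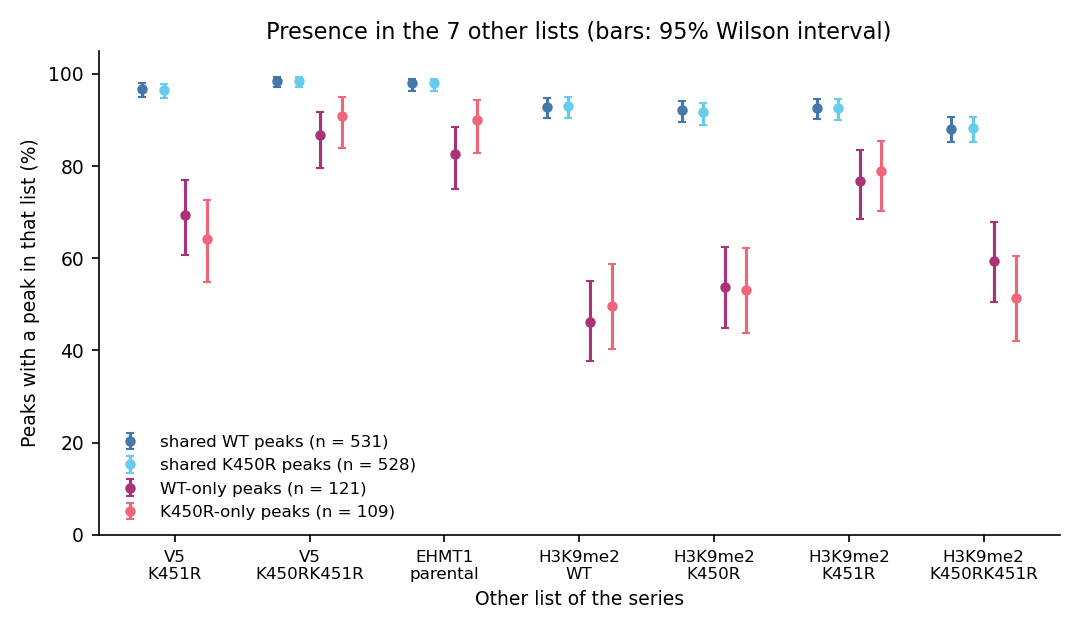
Share of shared WT, shared K450R, WT-only and K450R-only peaks (percent) that overlap a peak of each of the 7 other lists. Points are shares and bars 95% Wilson intervals; the unshared classes sit below the shared ones in every list, and the intervals of WT-only and K450R-only overlap in all 7.

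Of the 15 strongest peaks of each unshared class, 9 WT-only and 7 K450R-only peaks had a peak in all 7 other lists, and every one had a peak in at least 1. The WT-only peak in the intron of the netrin receptor gene DCC had a fold of 14.3 and a peak in all 7 other lists. The WT-only repeat on chromosome 4 printed above, with a fold of 7.48, and the chromosome Y place, with 5.35, also had a peak in all 7. Among K450R-only peaks, the mitochondrial-like place in the PCBD2 intron had a fold of 9.27 and a peak in the V5-EHMT1-K451R (9.0), V5-EHMT1-K450RK451R (6.57) and endogenous EHMT1 (8.70) lists, but in none of the H3K9me2 lists. The K450R-only place on chromosome 12, with a fold of 8.70, had peaks in 6 of the 7 other lists, and that on chromosome Y, with 4.16, in the V5-EHMT1-K450RK451R list alone. The K450R-only peak in an intron of AP2A2, an endocytic adaptor gene (chr11:965024-965236), had a fold of 9.94 and a peak in all 7 other lists.

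Leaving out the places with an H3K9me2 peak kept 35 WT peaks, of which 14 were shared, and 34 K450R peaks, of which 14 were shared, and this remainder held other kinds of DNA. Alpha-like and GGAAT repeats made up 45.7% and 18.9% of WT windows at H3K9me2 places and 11.4% and 5.71% elsewhere, and 45.5% and 20.3% against 12.1% and 3.03% of K450R windows. Mitochondrial-like windows made up 2.61% of WT windows at H3K9me2 places and 37.1% (13 of 35) elsewhere, and 3.17% and 33.3% (11 of 33) of K450R windows. Nuclear copies of mitochondrial DNA are ancient insertions that resemble the abundant mitochondrial genome. All 29 mitochondrial-like WT peaks and all 30 of K450R also had a peak of endogenous EHMT1. So did 620 of all 652 WT peaks (95.1%) and 615 of all 637 K450R peaks (96.5%), which is close to those counts. Without an H3K9me2 peak, the shared place in the PDZRN4 intron had a fold of 11.7 in WT and 10.3 in K450R, and that in an intron of the kinase anchor gene AKAP6 (K450R peak chr14:32954216-32954361) had 8.39 and 11.1. Introns of RGPD2 (chr2:88124399-88124532) and KIAA0825 (chr5:93905131-93905239) held K450R-only peaks with 11.5 and 9.52. Both places also had peaks in V5-EHMT1-K451R (15.5 and 13.8), V5-EHMT1-K450RK451R (9.09 and 13.0) and endogenous EHMT1 (17.9 and 16.6). The PCBD2 intron held both a WT-only peak, with a fold of 7.0, and the K450R-only peak. The part that reads from mitochondria play in these peaks was not tested.

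The rest of the remainder was 26 places of none of these repeat kinds. Of these places 7 were shared, 9 WT-only and 10 K450R-only, and 20 lay in a gene or within 100 kb of a protein-coding start. No share of genome windows is given for this distance rule. Whether these places lie nearer to genes than the genome at large was not tested. Those outside the naming rule were chosen after their values were seen. The core of the RE1 element, CAGCACC followed after any 2 bases by GGACAG, was searched on both strands of the summit windows after the sequences had been read. It was present in 5 of 35 WT and 4 of 33 K450R windows without an H3K9me2 peak. In windows with one it was present in 0 of 613 WT, which allows a share of up to 0.489%, and 0 of 600 K450R, and it occurred in 1 of the 14298 genome windows (0.00699%). A match shows the letters in the window and not a bound factor. The peak intervals are given below for the K450R-only place before HTR5A and for 2 shared places with the core, with CAGCACC and GGACAG, or their complements GGTGCTG and CTGTCC, in capitals.
HTR5A upstream, K450R-only (chr7:154861768-154861940): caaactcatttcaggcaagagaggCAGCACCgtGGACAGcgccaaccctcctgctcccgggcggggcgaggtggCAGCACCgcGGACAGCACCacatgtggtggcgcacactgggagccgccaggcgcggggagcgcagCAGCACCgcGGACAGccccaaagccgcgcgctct
NPAS4 intron, shared (WT peak chr11:66189134-66189354): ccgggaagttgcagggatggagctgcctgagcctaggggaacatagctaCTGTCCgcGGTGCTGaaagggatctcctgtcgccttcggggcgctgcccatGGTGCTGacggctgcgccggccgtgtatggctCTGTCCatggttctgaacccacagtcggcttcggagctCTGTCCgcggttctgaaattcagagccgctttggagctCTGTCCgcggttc
VRK3 intron, shared (K450R peak chr19:50490517-50490744): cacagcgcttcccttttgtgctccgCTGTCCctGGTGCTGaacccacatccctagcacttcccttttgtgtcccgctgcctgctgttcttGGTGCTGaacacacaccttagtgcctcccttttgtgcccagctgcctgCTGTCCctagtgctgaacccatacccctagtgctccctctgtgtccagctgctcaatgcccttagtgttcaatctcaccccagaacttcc

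The places with the core were found by endogenous EHMT1 whether or not both V5 lists held them. At NPAS4, an activity-dependent neuronal transcription factor, the fold was 10.0 in WT, 8.62 in K450R, 5.58 in K451R, 13.1 in K450RK451R and 15.9 for endogenous EHMT1. At IQSEC3, a synaptic exchange factor (chr12:176297-176430), it was 8.75 in WT, 6.91 in K450R, 13.3 in K450RK451R and 14.2 for endogenous EHMT1, with no K451R peak. At VRK3, a kinase gene, it was 4.92 in WT, 8.29 in K450R, 5.88 in K451R, 7.51 in K450RK451R and 14.7 for endogenous EHMT1. The fold was thus higher in WT at NPAS4 and IQSEC3 and higher in K450R at VRK3, whose WT pileup was 8 reads and whose K450R pileup was 15. At NPAS4 the core lay in the window of the WT summit but not in that of the K450R summit.

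The unshared places with the core were split between the lists. The K450R-only peak 172 bp from the start of HTR5A, a serotonin receptor gene, had a fold of 8.23 from a pileup of 12 reads, against 13.4 in K450RK451R and 16.7 for endogenous EHMT1, and no peak in WT or K451R. The K450R-only peak 95.1 kb from LHX2, a homeobox gene (chr9:126872717-126872836), had a fold of 7.69 from 11 reads, and 18 for endogenous EHMT1. On the WT side, the peak in an intron of ZIM2-AS1, 4.95 kb from the start of SMIM17 (chr19:57149498-57149656), had a fold of 8.12 from 12 reads, 10.0 in K450RK451R and 13.9 for endogenous EHMT1. The WT-only peak 4.2 kb from NKX1-1, a homeobox gene (chr4:1404375-1404474), had 6.25 from 9 reads, 6.49 in K451R, 7.57 in K450RK451R and 7.0 for endogenous EHMT1. In all 7 places with the core, endogenous EHMT1 had a peak with a higher fold than V5-EHMT1 WT or K450R, though folds of lists with unlike depth are not on 1 scale. Over all peaks, endogenous EHMT1 had a peak at 620 of 652 WT (95.1%) and 615 of 637 K450R peaks (96.5%), so its presence at these 7 is close to that share. How often its fold was the higher over all peaks was not counted.

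**Figure D5:**
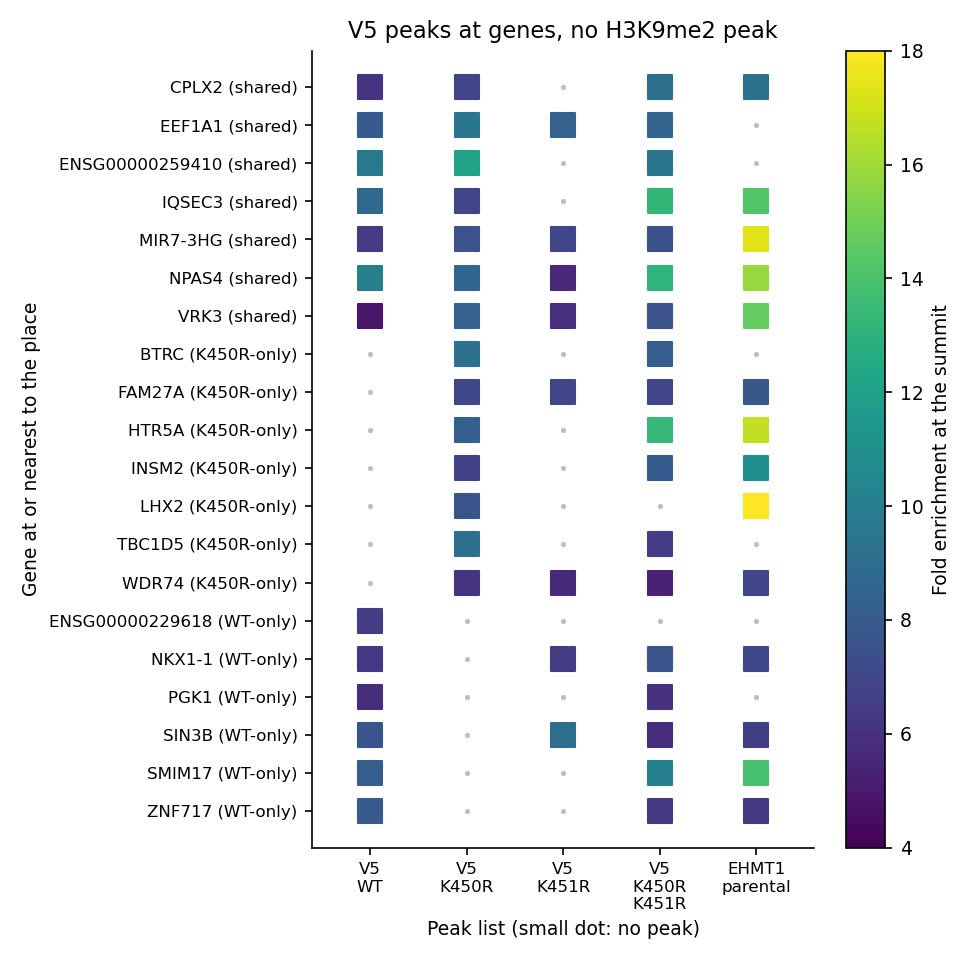
Fold enrichment at the summit (colour, from 4 to 18) in the 4 V5 lists and the endogenous EHMT1 list at the 20 places in or near genes that had a WT or K450R V5 peak, no H3K9me2 peak and none of the repeat kinds. A small dot means no peak. Endogenous EHMT1 has a peak at 5 shared, 8 K450R-only and 4 WT-only of all 26 places. Its fold there is above WT and K450R at 5, 5 and 2 of these. How often that holds over all peaks was not counted. Of the 20 drawn, endogenous EHMT1 has no peak at EEF1A1, PGK1, BTRC, TBC1D5 and 2 non-coding RNA genes.

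Some of the other places lay in genes but lacked the core. CPLX2, which encodes a complexin of synaptic vesicles (chr5:175223988-175224195), had a fold of 6.08 in WT, 6.88 in K450R, 9.09 in K450RK451R and 9.17 for endogenous EHMT1. MIR7-3HG, the host gene of a neuroendocrine microRNA (chr19:4769650-4769831), had 6.41 in WT, 7.51 in K450R and 17.3 for endogenous EHMT1. INSM2, a zinc-finger gene of the insulinoma-associated family (chr14:36004473-36004572), was K450R-only with a fold of 6.75, and had 7.91 in K450RK451R and 11 for endogenous EHMT1. SIN3B, a corepressor scaffold gene (chr19:16986411-16986699), was WT-only with 7.69, and had 8.94 in K451R, 5.77 in K450RK451R and 6.61 for endogenous EHMT1. A K450R peak lay 317 bp from this place, so the gene had a peak in both lists.

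Other places had peaks with V5 and not with endogenous EHMT1. The start of EEF1A1, a translation elongation factor gene (chr6:74229800-74230924), had folds of 7.95 in WT, 9.49 in K450R, 8.36 in K451R and 8.45 in K450RK451R, with pileups of 27 reads in WT and 44 in K450R, and no peak in any other list. The start of PGK1, a glycolytic kinase gene (chrX:77359448-77359603), had 5.84 in WT and 5.98 in K450RK451R and no other peak. A place within 1 kb of RNU6-1, a U6 small nuclear RNA gene on chromosome 15 (chr15:68132447-68132621), had 9.66 in WT, 12.1 in K450R and 9.37 in K450RK451R. As background, promoters of EEF1A1, PGK1 and U6 genes are widely used in expression vectors, and whether vector DNA plays a part in these peaks was not tested. K450R-only peaks also lay at small nuclear RNA genes of the U2 kind. RNU2-59P in an intron of BTRC (chr10:103124600-103124735) had a fold of 9.15, 8.06 in K450RK451R and no endogenous EHMT1 peak. Unlike these places, RNU2-2P at the start of WDR74 (chr11:62609112-62609284) had an endogenous EHMT1 peak, with a fold of 6.95. The fold there was 6.15 in K450R, 5.65 in K451R and 5.36 in K450RK451R.

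Few peaks of either list lay at coding starts. Within 1 kb of a protein-coding start were 6 of 531 shared WT summits (1.13%, 0.519 to 2.44%), 4 of 121 WT-only (3.31%, 1.29 to 8.19%) and 5 of 109 K450R-only summits (4.59%, 1.98 to 10.3%), against 2.45% of genome windows. The shared ones were at MUC2, NPAS4, IQSEC3, CPLX2, EEF1A1 and MT-CYB. The WT-only ones were at FAM230A, SNX16, MTRNR2L10 and PGK1, and the K450R-only ones at WDR74, CDC27, RGPD2, HTR5A and MT-ND1. MT-CYB and MT-ND1 belong to the mitochondrial genome, which the genome windows do not cover. Without H3K9me2 places the counts were 4 of 14 shared WT, 2 of 21 WT-only and 4 of 20 K450R-only. Of these starts, MUC2, a gut mucin gene (chr11:1093294-1093451), had folds of 5.81 in WT and 7.14 in K450R and a peak in all 9 lists. At CDC27, a subunit of the anaphase-promoting complex (chr17:45213906-45214032), the K450R-only peak had a fold of 8.96. The fold there was 10.4 in K451R, 11.1 in K450RK451R and 12.4 for endogenous EHMT1. These classes describe peaks and not genes. FAM230A, CDC27 and MT-ND1 had a peak of both lists in the gene or within 5 kb.

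Genes in or within 5 kb of a peak numbered 74 for WT (0.367% of 20149 protein-coding genes) and 81 for K450R (0.402%), with 60 in both. These include genes of the mitochondrial genome, where each list had 4 peaks and the 5 kb margin reached many genes. Among them, MT-ATP6, MT-ATP8 and MT-CO2 were counted for K450R alone and MT-CO3 for WT alone. Of 25 REST target genes, 0 had a WT peak, which allows a share of up to 12%, and 1 had a K450R peak, HTR5A. These counts depend on which genes were listed. NPAS4, IQSEC3, VRK3 and CPLX2, with a peak in both lists, are not among the 25. Neither are SMIM17 and NKX1-1, which had a peak within 5 kb in the WT list alone. V5-EHMT1-K450RK451R and endogenous EHMT1 had peaks at 10 and 9 of the same 25, where 24.8% and 2.44% of all protein-coding genes had a peak in those lists. Of 14 androgen receptor and luminal prostate genes and of 20 E2F target genes, 0 had a peak in either list. This allows shares of up to 21.4% and 15%, far above the 0.367% and 0.402% of all protein-coding genes. Of 20 genes of the H3K9 methylation machinery and the REST complex, EHMT1 itself had a WT peak and none had a K450R peak, which allows a share of up to 15%. That peak, in an intron of EHMT1 (chr9:140610792-140610943), ranked 650 of 652 in the WT list with a fold of 5.05, lay in a tandem repeat, and had a peak in every other list but that of K450R, among them H3K9me2 with 12.7 in the WT line and 12.5 in the K450R line. Of other genes named in the study, PPP1R14C, STXBP3, LIPT2, FRMPD2 and MCM7 had no WT or K450R peak in the gene or within 5 kb.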

How the data were processed

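The authors mapped 51-nt single-end reads to hg19 and called peaks, and the submitters' processing notes list BWA 0.7.9a, SAMtools 1.2, FastQC 0.11.9 and MACS2 2.1.0. The deposited lists give, per peak, fold enrichment (a linear ratio of the summit over local background), −log10 of the p-value and of the q-value, and the summit's offset from the start. How replicates were combined is not given in the sources used here.

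From these values the whole-number pileup and Poisson background were solved for 100% of peaks, which was tested on simulated peaks. The reads behind each list were estimated from its genome-wide background of 0.327 for WT and 0.411 for K450R, with 100-bp reads and 2.7 Gb of genome, both assumed. Coordinates are 1-based hg19, and all 225 pairs of chromosome and list ended inside the reference. Genes are GENCODE version 44 on that build. Mitochondrial likeness was a blastn 2.17.0 match at an e-value of 1e-10, GGAAT and telomere kinds needed 25% of a 201-bp window, and the 171-base kind 45% self-identity over 1001 bp, which other tandem repeats can also reach. These thresholds were chosen after seeing the data. Scripts ran on Python 3.11.15 with pandas 2.3.3, numba 0.67.0, numpy 2.4.6 and scipy 1.17.1.

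Members, gene lists and comparisons were chosen with earlier results of these data known. Named places are the 15 strongest of each unshared class, the 10 strongest shared places, the 14 shared places without H3K9me2, the 5 most unequal pairs each way, shared places at coding starts and genes the study names. Others were chosen after their values were seen. Some places that meet this rule are not reported here. The alternatives were stricter q, p or fold cutoffs, equal list lengths, other overlap rules, other H3K9me2 rules, wider distances and removal of repeat regions.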

Additional observations from a re-analysis of the deposited data

How the results depend on the processing

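No paired analysis was possible because replicates have no lists of their own, nor could a replicate be left out, and a missing weak peak is not detectable as lost binding at 8.84 M and 11.1 M reads. Of 112 alternative values, 82 stayed within 1.5 times the count or within the 95% interval of the value as reported. The share of WT peaks with a K450R peak ranged from 75.7% to 86.7%, and that of K450R peaks with a WT peak from 79.1% to 86.5%. These ranges hold no alternative that leaves out H3K9me2 places, where sharing was lower. Without those places, 14 WT peaks were shared and 21 were WT-only, and 14 K450R peaks were shared and 20 were K450R-only. Reciprocal overlap of 50% gave 77.3% of WT and 79.1% of K450R peaks shared, and 72.9% of K450R-only peaks at an H3K9me2 place. Peaks within 1 kb counted as shared gave 86.7% and 86.5%. A −log10 q of at least 10 left 77 WT-only peaks, and a fold of at least 5 put 73.3% of K450R-only peaks at an H3K9me2 place. Without 1 Mb around gaps, 25 WT-only and 19 K450R-only peaks were left, and H3K9me2 places held 90.3% of shared WT, 60.0% of WT-only and 52.6% of K450R-only peaks. Without windows that have no unique 51-base stretch, 79.6% of K450R peaks were shared. With all 4 H3K9me2 lists required, the shares were 81.4%, 30.6% and 30.3%, and with the list of the same line alone 92.8%, 46.3% and 53.2%. Pileup scaled to the estimated reads moved the median log2 ratio to −0.25. For coding starts, 5 kb gave 3.39% of shared WT peaks, and leaving out H3K9me2 places gave 28.6% of shared WT, 9.52% of WT-only and 20% of K450R-only peaks. Without the repeat and mitochondrial-like kinds, an alternative chosen after seeing the data, 75.7% of WT peaks were shared, 51 WT-only and 36 K450R-only peaks were left, H3K9me2 places held 95.6% of shared WT and 72.2% of K450R-only peaks, and 2.52% of shared WT peaks lay at a coding start. The alternatives that remove places do so by construction, and the cause of the other shifts was not tested.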
